A study of Mus musculus with 7 samples.

Results

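Cytosolic ribosomal protein genes encode the proteins that, with ribosomal RNA, make up the small and large subunits of the ribosome. Members were chosen by name alone: protein-coding genes with the mouse symbol Rplp0, Rplp1, Rplp2 or Rpsa, or with a symbol of Rpl or Rps followed by a digit, without the Rps6k kinases, pseudogene names and predicted genes. The rule found 86 members among the 53379 genes of the deposited count table, of which 49 belong to the large subunit without its stalk, 3 to the stalk and 33 to the small subunit. The remaining member, Rps19bp1, encodes a protein that binds Rps19 and is not itself a ribosomal protein. Among the members are also 8 duplicated copies (paralogs) of another member.

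The RNA came from natural killer (NK) cells, innate lymphocytes that kill virus-infected and tumour cells, sorted from the spleen of C57BL/6 mice. The surface gate in the labels was viable CD45+ (written C45+) CD3- NK1.1+ NKp46+ CD49b+, and the cells were lysed ex vivo with no culture or treatment named. There were 4 libraries of genotype Hhex KO, labelled as a knockout of the homeobox transcription factor gene Hhex, and 3 of genotype Cre control, a control named for the Cre recombinase. The sources used here give neither the promoter that drives Cre nor the age of the mice. Total counts ran from 10589915 to 18456404 per library. The targeted gene Hhex gave 96.1, 95.6 and 93.5 CPM (counts-per-million) in the controls and 58.0, 56.5, 54.2 and 64.8 CPM in the knockouts, each in the order of the replicate numbers, as are all values by library below. It fell by 0.70 on the log2 scale (SE 0.10, adjusted p = 0.00768), with reads remaining in every Hhex KO library. All 8 NK marker genes on the list, among them Ncr1, Klrb1c, Eomes and Prf1, had counts in every library and summed to between 15324 and 19953 CPM in Cre control and between 12236 and 16412 CPM in Hhex KO.

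Each mammalian ribosome holds a single copy of most of these proteins, and cells make them in matched amounts. Their mRNAs carry a terminal oligopyrimidine (TOP) start, a C followed by a run of pyrimidines, through which the mTORC1 kinase and the RNA-binding protein Larp1 control their translation. In resting lymphocytes ribosome production is low, and it rises when the cells are activated and grow. Many of the genes also carry small nucleolar RNA (snoRNA) genes in their introns, which guide the modification of ribosomal RNA. In the annotation (GENCODE M21 on GRCm38), 30 of the 86 members held 59 snoRNA genes, and the members lay on 19 chromosomes.

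Promoters are shown first because most members moved together between libraries. Of the 86 members, 66 had an entry in the RefSeq promoter table (GRCm38.p6), which gives 250 bases before and 50 bases after each annotated start. The pyrimidine motif CTTTC, searched on the sense strand within 25 bases on each side of the start, was present in 20 of the 66 (30.3%), against 7.81% of 26959 other genes. The motif CTCTTT in the same window, which can overlap the first, was present in 9 members (13.6%) and in 2.22% of other genes. The 30 bases around the start of Rpl13a (chr7:45128731-45128760, minus strand), Rpl12 (chr2:32961697-32961726, plus strand), Rpl15 (chr14:18270972-18271001, minus strand), Rpl7a (chr2:26910792-26910821, plus strand) and Rps27 (chr3:90213634-90213663, minus strand) hold CTTTC, marked here in capitals. Each is written 5′ to 3′ on the gene's strand, with 15 bases before the start and 15 from it on.
Rpl13a: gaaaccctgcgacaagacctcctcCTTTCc
Rpl12: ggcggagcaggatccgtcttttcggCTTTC
Rpl15: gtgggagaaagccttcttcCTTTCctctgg
Rpl7a: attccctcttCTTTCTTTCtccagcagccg
Rps27: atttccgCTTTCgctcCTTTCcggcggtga
The same window of Rps6 (chr4:86857353-86857382, minus strand), Rplp0 (chr5:115559452-115559481, plus strand) and Rps2 (chr17:24720048-24720077, plus strand) does not hold CTTTC, and is shown because these 3 genes are followed by library below. That of Rps6 holds the other motif, CTCTTT, in capitals here.
Rps6: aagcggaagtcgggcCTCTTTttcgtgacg
Rplp0: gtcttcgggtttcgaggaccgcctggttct
Rps2: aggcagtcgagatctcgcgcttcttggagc

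The motif CCGGAAG, bound by ETS-family factors, was searched on both strands of the whole 300 bases. It was present in 26 of 66 members (39.4%) and in 9.86% of other genes. ATGGCGG, bound by YY1, was present on either strand in 11 members (16.7%) and in 4.66% of other genes, while TATAA on the sense strand before the start was present in 16.7% of members and 18.4% of other genes. The 120 bases before the start are shown for 2 members that hold CCGGAAG, Rps6 (chr4:86857368-86857487, minus strand) and Rpl15 (chr14:18270987-18271106, minus strand), with the motif in capitals.
Rps6: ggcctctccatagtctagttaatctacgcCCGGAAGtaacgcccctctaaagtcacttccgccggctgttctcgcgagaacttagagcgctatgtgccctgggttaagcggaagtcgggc
Rpl15: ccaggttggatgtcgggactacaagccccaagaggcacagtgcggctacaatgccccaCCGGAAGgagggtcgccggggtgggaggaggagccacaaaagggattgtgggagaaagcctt
The median log2 fold change, Hhex KO over Cre control, was 0.45 in the 19 tested members with CTTTC and 0.38 in the 44 tested members without it. For CCGGAAG the medians were 0.39 in 25 members with the motif and 0.36 in 38 without it. For CTCTTT they were 0.50 in 9 members with it and 0.38 in 54 without it. TATAA, which was not more frequent in members, gave 0.45 in 11 with it and 0.38 in 52 without it. For ATGGCGG the order was the reverse, with 0.34 in 11 members with it and 0.39 in 52 without it. These are descriptions of sequence letters, and no test was made of the difference.

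Ribosomal protein transcripts took a larger share of all counts in 3 of the 4 Hhex KO libraries than in any control. The controls gave 4.55%, 4.76% and 3.99% (mean 4.43% ± 0.395, SD, n = 3). The Hhex KO libraries gave 4.49%, 6.43%, 6.71% and 5.92% (mean 5.89% ± 0.988, SD, n = 4). Hhex KO replicate 1 lay inside the range of the controls and the others lay above it, so that the groups overlapped. In bulk RNA, more cells with high levels and more of this RNA per cell cannot be told apart.

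**Figure D1:**
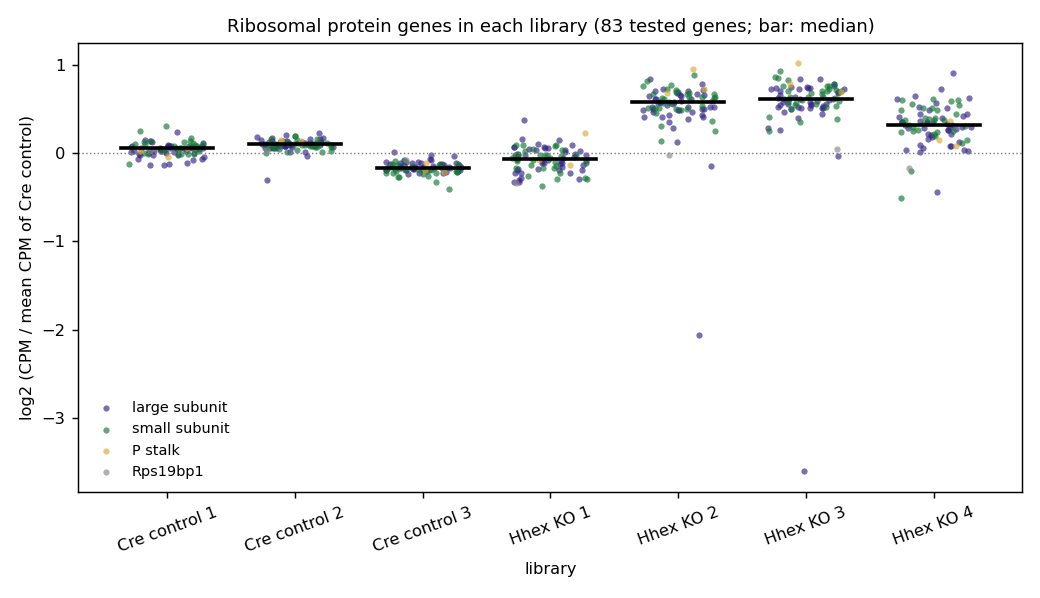
Level of each of 83 tested ribosomal protein genes (points, coloured by subunit) in each of the 7 libraries, as log2 of its CPM over its mean CPM in Cre control, with the median as a bar. The control medians are 0.06, 0.10 and -0.17, those of Hhex KO replicates 1 to 4 -0.06, 0.58, 0.62 and 0.32; the isolated low points are Rpl24.

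Of the 86 members, 83 passed the filter on low counts and entered the test over 12161 genes. Rpl3l, Rpl10l and Rpl39l did not. Rpl13a was the only member called, as higher in Hhex KO, by edgeR's quasi-likelihood test at an adjusted p below 0.05, where 2.68% of all tested genes were called higher and 4.56% in either direction. No member was called lower, where 1.87% of all tested genes were. At an unadjusted p below 0.05, 29 members were higher, beside 10.1% of all tested genes. The log2 fold change was above 0 in 79 of 83 members, beside 52.7% of all tested genes, and its median was 0.39, beside 0.02 for all tested genes. Most members thus had small positive values that did not pass the threshold singly.

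**Figure D2:**
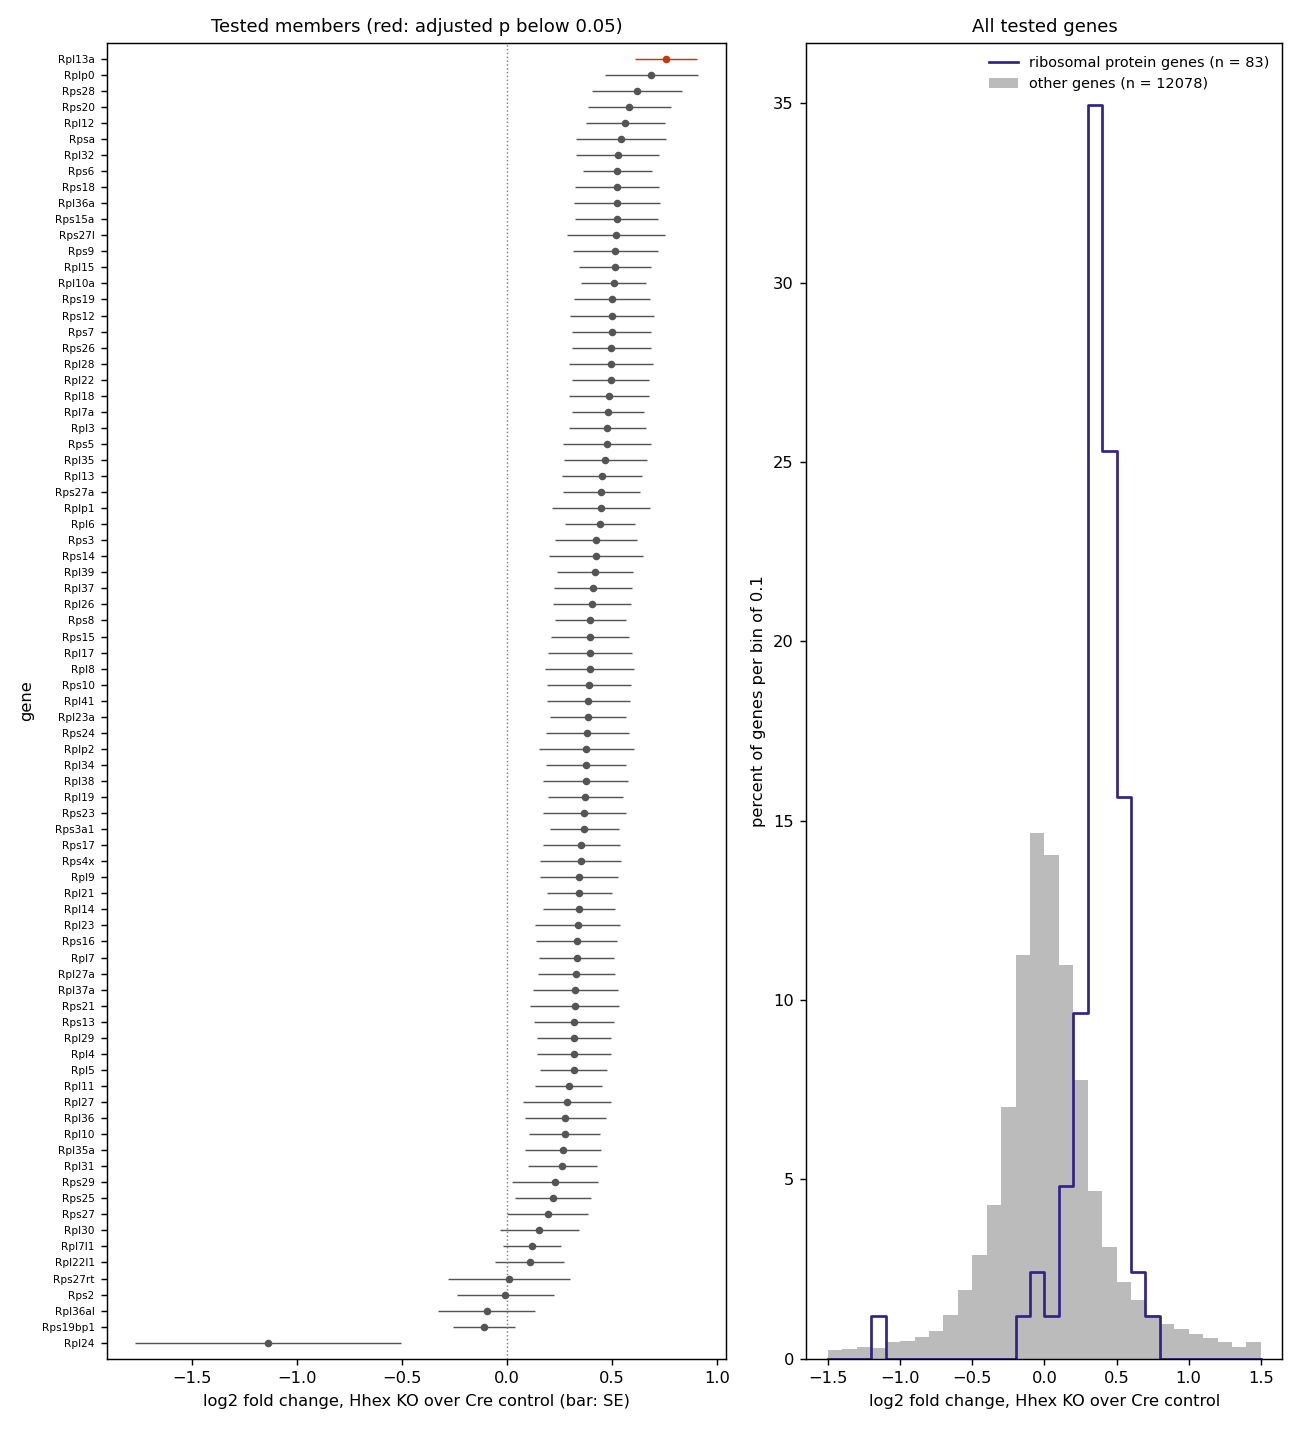
Left, log2 fold change of Hhex KO over Cre control (points) with its standard error (bars) for each of 81 tested ribosomal protein genes, red where the adjusted p is below 0.05. Right, percent of ribosomal protein genes (line) and of 12078 other tested genes (grey bars) per bin of log2 fold change; most members lie between 0.2 and 0.6, Rpl13a is highest at 0.76 and Rpl24 lowest at -1.14.

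The count of called members depended on the test and on the libraries. With all 7 libraries, DESeq2 called 7 members higher, where it called 5.14% of all tested genes higher, and 0 lower, beside 3.86%. They were Rpl13a, Rplp0, Rps6, Rpl10a, Rpl12, Rps20 and Rpl15. Limma-voom with sample quality weights called 71 members higher and 1, Rpl24, lower, with 12.7% and 10.9% of all tested genes called. That fit gave Hhex KO replicates 1 and 4 weights of 0.342 and 0.262 and the other libraries weights of 1.20 to 2.00. Without Hhex KO replicate 1, edgeR called 15 members higher and 0 lower, with 1.93% and 1.62% of genes called. Without any single Cre control library, or without Hhex KO replicate 2 or 3, it called 0 members, and without Hhex KO replicate 4 it called 1.

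The P stalk, the flexible arm that recruits elongation factors to the ribosome, is built by Rplp0, which anchors it, and by Rplp1 and Rplp2. Rplp0 had 1106, 1264 and 1056 CPM in the 3 controls, against 1343, 2223, 2320 and 1476 CPM in the 4 knockouts. Every Hhex KO library lay above every control, and the groups differed by 0.69 ± 0.22 (SE) in log2 fold change, at an adjusted p of 0.130. Rplp1, the member with the highest level per length, had 1447, 1522 and 1203 CPM in controls, against 1324, 2313, 2404 and 1547 CPM in knockouts. The log2 difference was 0.45 ± 0.23 (adjusted p = 0.357), and Hhex KO replicate 1 lay among the controls. For Rplp2 it was 0.38 ± 0.23 (adjusted p = 0.434). All 3 stalk genes stood well above the controls in Hhex KO replicates 2 and 3. In replicates 1 and 4, Rplp1 and Rplp2 lay close to the controls or among them, and Rplp0 lay above them by less than in replicates 2 and 3.

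In the large subunit without stalk and paralogs, 42 of 43 tested members had a log2 fold change above 0, with a median of 0.39, and 1, Rpl13a, was called. Rpl13a (ENSMUSG00000074129.13, chr7:45125558-45128761) encodes a surface protein of the large subunit that is also known to leave the ribosome in interferon-treated myeloid cells and to silence inflammatory mRNAs. It rose from 35.0, 36.5 and 31.9 CPM in the controls to 44.9, 61.9, 61.7 and 64.9 CPM in the knockouts. The groups did not overlap, and they differed by 0.76 ± 0.15 in log2 fold change (adjusted p = 0.0245). Its log2 fold change was between 0.70 and 0.86 without any single library, but the call was lost in 5 of these 7 fits. The adjusted p was 0.107, 0.0811 and 0.123 without Cre control replicates 1, 2 and 3, and 0.0529 and 0.0600 without Hhex KO replicates 2 and 3. It was 0.00828 without Hhex KO replicate 1 and 0.0288 without replicate 4.

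Per length, Rpl13a was far below most of its family, at 52.5 ± 1.64 TPM (SD, n = 3) in Cre control. TPM are read counts per exon base, scaled to the same total in each library. Of its representative transcript, 59.3% lies in exons of the predicted gene Gm45713 on the same strand, and Gm45713 has a count of 0 in all 7 libraries. The gene also holds 4 snoRNA genes in its introns. The sources used here do not say how reads that fall in both genes were treated, and the part of the overlap in the change of Rpl13a was not tested.

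Rpl10a, a protein of the mobile L1 stalk near the exit of spent tRNA, had 189.7, 221 and 183 CPM in controls, against 219.5, 296, 328 and 283 CPM in knockouts. The log2 difference was 0.51 ± 0.16 (adjusted p = 0.113), and Hhex KO replicate 1 lay just below the highest control. Rpl12, at the base of the P stalk, differed by 0.56 ± 0.19 (adjusted p = 0.144), from 795, 800.5 and 662 CPM in controls to 784, 1233, 1278 and 1155 CPM in knockouts. Hhex KO replicate 1 again lay within the controls and the other 3 above them. Rpl15, a core protein of the large subunit, differed by 0.52 ± 0.17 (adjusted p = 0.140), Rpl7a by 0.48 ± 0.17 (adjusted p = 0.164) and Rpl6 by 0.44 ± 0.17 (adjusted p = 0.188) in log2 fold change. None of these 3 passed the threshold either.

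Large subunit proteins that share a place on the ribosome had values within the range of the family. Rpl5 and Rpl11, which carry the 5S ribosomal RNA and bind the p53 regulator Mdm2 when ribosome assembly fails, had log2 fold changes of 0.32 and 0.30. The 8 tested proteins around the exit of the nascent chain (Rpl17, Rpl19, Rpl22, Rpl23a, Rpl26, Rpl31, Rpl35 and Rpl39) ranged from 0.26 to 0.49 with a median of 0.40, and 0 of them were called.

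In the small subunit without paralogs, 30 of 31 tested members had a log2 fold change above 0, with a median of 0.42, and 0 were called. Rps6, the substrate of the S6 kinases downstream of mTORC1, had 378, 368 and 339.5 CPM in controls, against 385, 575, 581 and 544 CPM in knockouts. Every Hhex KO library lay above every control, though replicate 1 did so by little. The log2 difference was 0.53 ± 0.16 (adjusted p = 0.119). Rps20, a protein of the small subunit head, had 387.5, 434.5 and 347 CPM in controls, against 413, 666, 709 and 548 CPM in knockouts, a log2 difference of 0.58 ± 0.20 (adjusted p = 0.145). Rps28 had the largest value of the small subunit, 0.62 ± 0.22 (adjusted p = 0.158), and Rps19 had 0.50 ± 0.18 (adjusted p = 0.171). Rps19 and Rps28 are among the genes mutated in Diamond-Blackfan anaemia, a failure of red cell production. The 17 tested members on that list, from both subunits, ranged from 0.19 to 0.62 with a median of 0.39, and 0 were called.

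Rps2, a protein at the mRNA entrance of the small subunit, stood near 0, the lowest of the tested small subunit members outside the paralogs. It had 439.8, 549.9 and 451 CPM in controls, against 371, 573, 626 and 339 CPM in knockouts, a log2 difference of -0.01 ± 0.23 (adjusted p = 0.991). Hhex KO replicates 1 and 4 lay below every control and replicates 2 and 3 above them. Its sign turned with upper-quartile scaling, with sample quality weights, with the replicate block and without Cre control replicate 2, Hhex KO replicate 1 or Hhex KO replicate 4, so that no direction can be given.

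**Figure D3:**
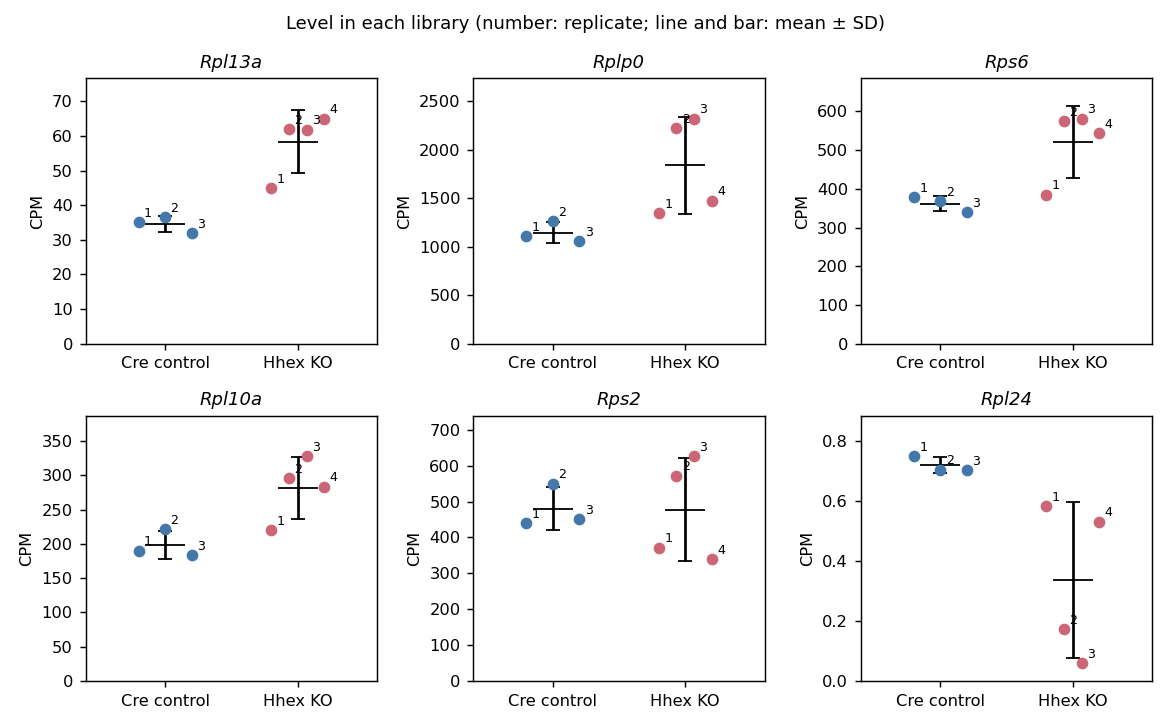
CPM in each library (points, numbered by replicate) with the mean and SD (lines) in Cre control (n = 3) and Hhex KO (n = 4) for 6 members. Rpl13a, Rplp0 and Rps6 are higher in every Hhex KO library than in any control, Rpl10a and Rps2 overlap between groups, and Rpl24 is below 1 CPM throughout.

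Groups did not overlap, with Hhex KO higher, in 3 tested members, Rpl13a, Rplp0 and Rps6, beside 9.37% of all tested genes. With Hhex KO lower, they did not overlap in 1, Rpl24, beside 9.98% of all tested genes. Rpl24 encodes a protein that bridges the subunits. It had raw counts of only 10, 8 and 13 in controls, against 9, 3, 1 and 6 in knockouts, and a log2 difference of -1.14 ± 0.63 (adjusted p = 0.392). Of its transcript, 71.5% is shared on the same strand with Gm28037, which has a count of 0 in all libraries. The part of this overlap in the low counts was not tested.

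Per exon base, the members spanned a wide range of levels. Among the highest in Cre control were Rplp1 at 8948 ± 709 TPM (SD, n = 3), Rps15 at 4354 ± 235, Rps27 at 2936 ± 270.0, Rpl8 at 2779 ± 261 and Rpl36 at 2606 ± 141. In Hhex KO, Rplp1 was at 12040 ± 2295 TPM (SD, n = 4). Rps27 and Rpl8 differed by less than their SD, and Rpl8 and Rpl36 by less than the SD of Rpl8 but more than that of Rpl36. The 6 lowest tested members were Rpl24, Rpl36al, Rps27rt, Rps19bp1, Rpl13a and Rpl7l1, at 2.25 to 81.5 TPM in Cre control, and they include 3 paralogs, of which Rpl36al shares 63.1% of its transcript with Gm49383. Exon length here covers every annotated exon of a gene, so genes with many rare isoforms get a low value.

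The paralogs, duplicated copies of another member, had a median log2 fold change of 0.11 over 5 tested paralogs, beside 0.39 for all tested members. Of these paralogs 0 were called, and the difference between the medians was not tested. Rpl22l1, which can act against Rpl22 in blood cell development, had 113.5, 104.6 and 92.5 CPM in controls, against 82.6, 113.0, 124.1 and 126.7 CPM in knockouts, a log2 difference of 0.11 ± 0.16 (adjusted p = 0.815). For Rpl22 the difference was 0.49 ± 0.18 (adjusted p = 0.184). Per exon base, Rpl22l1 reached 45.3%, 40.6% and 43.9% of Rpl22 in controls, against 33.6%, 29.8%, 31.0% and 38.9% in knockouts. This ratio was lower in every Hhex KO library than in every control, and Hhex KO replicate 1, which resembled the controls in the level of the family, was also below them here.

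Rpl7l1, a paralog known for its part in ribosome assembly, reached 7.40%, 7.23% and 7.54% of Rpl7 in controls, against 6.59%, 6.15%, 6.02% and 6.94% in knockouts, with no overlap. Rps27l, a p53 target that binds Mdm2, went the other way, from 5.69%, 5.40% and 5.01% of Rps27 in controls to 5.88%, 6.75%, 6.90% and 7.21% in knockouts. Its own log2 difference was 0.52 ± 0.23 (adjusted p = 0.280), beside 0.19 ± 0.19 (adjusted p = 0.687) for Rps27. Only 1.48% of the 75-base windows of Rps27 are found in no other annotated gene, so its level is uncertain. Ratios of Rpl36al to Rpl36a and of Rps27rt to Rps27 overlapped between groups. That of Rpl39l to Rpl39, which rests on few reads, was 0.202%, 0.120% and 0.130% in controls, against 0.573%, 0.222%, 0.209% and 0.392% in knockouts. None of these ratios was tested. With 4 libraries against 3, an exact permutation test cannot go below p = 0.0286 one-sided. Among all tested genes taken singly, the groups did not overlap in 9.37% with Hhex KO higher and in 9.98% with Hhex KO lower. No such share was counted for ratios of gene pairs.

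**Figure D4:**
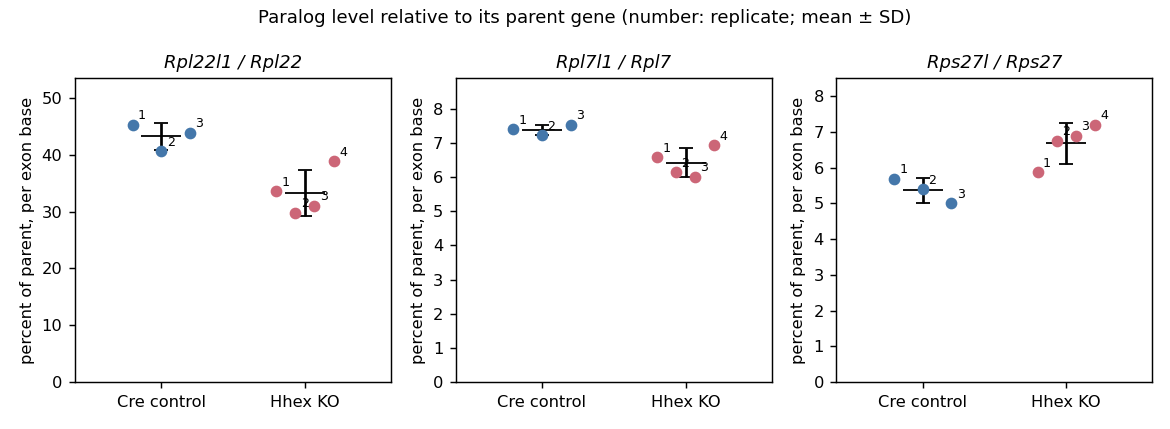
Level of 3 paralogs per exon base as a percent of their parent gene in each library (points, numbered by replicate), with mean and SD (lines), in Cre control (n = 3) and Hhex KO (n = 4). Rpl22l1 over Rpl22 and Rpl7l1 over Rpl7 are lower, and Rps27l over Rps27 higher, in every Hhex KO library than in any control.

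The remaining paralogs were at the limit of detection. Rpl39l, a testis-type copy of the exit tunnel protein Rpl39, had counts of 4, 2 and 3 in controls, against 12, 8, 8 and 8 in knockouts, with no overlap in CPM but too few reads to enter the test. Rpl10l, a retrogene copy of Rpl10 that works in male germ cells, was listed at 0 in all libraries, and the muscle paralog Rpl3l had 1 count, in Hhex KO replicate 1. Rps19bp1, the member that is no ribosomal protein and is known as a regulator of the deacetylase Sirt1, differed by -0.11 ± 0.15 in log2 fold change (adjusted p = 0.787).

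Because ribosomal protein genes have many processed pseudogenes, the uniqueness of their sequence was counted. In 42 of the 86 members under 50% of the 75-base windows of the transcript, the read length, are found in no other annotated gene, and in 15 members at least 90% are. The 643 pseudogene rows of the table that share a window with a member held 0.585% to 0.647% of the members' own counts, so few reads were given to them. The 41 tested members with at least 50% unique windows had a median log2 fold change of 0.41, and the 42 with fewer had 0.37. The 30 members that host snoRNA genes had a median of 0.40, and the 53 tested members that do not had 0.38. The sources used here do not state the treatment of reads with several matches.

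The members varied between libraries as a block. Hhex KO replicate 3 was the highest library for 70 of 83 tested members, and Cre control replicate 3 was the lowest for 63. Hhex KO replicate 1 was the lowest for 14. The counts of large subunit and stalk genes were 1.12 to 1.20 times those of small subunit genes in all libraries, a range that held in both groups. Between replicates, the median SD of a member on the log2 scale was 0.15 in Cre control and 0.33 in Hhex KO, beside 0.15 and 0.25 for all tested genes. For the 2381 tested genes with a mean of at least 100 CPM it was lower, at 0.12 in Cre control and 0.24 in Hhex KO.

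Within the Hhex KO group the libraries also differed in which members were high. Over 82 tested members without Rpl24, the log2 ratios to the Cre control mean in Hhex KO replicates 2 and 3 had a Pearson r of 0.97, and those of replicate 4 had r of 0.41 to 0.45 with the other 3. These correlations are across genes and share the same control mean, and they are given as a description. Among the members furthest below the mean of replicates 2 and 3 in replicate 4 were Rps2 (-0.82 on the log2 scale), Rplp0 (-0.62), Rplp2 (-0.61), Rplp1 (-0.61) and Rpsa (-0.60). Replicate 4 was above them for Rpl36al (0.18), Rpl35 (0.17), Rpl17 (0.15), Rpl41 (0.13) and Rpl22l1 (0.10). The value of Rpl36al rests on raw counts of only 55, 58 and 42 in Hhex KO replicates 2, 3 and 4. All 3 stalk genes were thus low in replicate 4 when set against replicates 2 and 3. Against the controls, Rplp0 and Rplp1 in replicate 4 lay above every library, and Rplp2 lay among them. Members were picked here for their rank in this difference, after their values were seen. The deposited table numbers this library 95 and the others 20 to 28; whether they differ in batch was not tested.

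Ribosomal proteins that fall outside the naming rule, Rack1 and Fau, also had log2 fold changes above 0, and neither was called. Rack1, a signalling scaffold on the small subunit, differed by 0.49 ± 0.19 in log2 fold change (adjusted p = 0.206), from 1417, 1487 and 1261 CPM in controls to 1439, 2271, 2304 and 1800 CPM in knockouts. Fau, a fusion of a ubiquitin-like protein with a small subunit protein, had 0.22 ± 0.19 (adjusted p = 0.613). The library pattern of Rack1 was that of the members, with Hhex KO replicate 1 inside the controls.

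Other mRNAs with a TOP start, mostly elongation factors and their partners, were above 0 in log2 fold change in 16 of 16 tested genes, with a median of 0.31 and 0 called. Eef1b2, which recharges the elongation factor that delivers tRNA, had 0.58 ± 0.18 (adjusted p = 0.120), Naca, which binds chains as they leave the ribosome, 0.48 ± 0.15 (adjusted p = 0.113), and the nucleolar chaperone Npm1 0.45 ± 0.15 (adjusted p = 0.135). They summed to 16911, 20258 and 17981 CPM in controls, against 19006, 28122, 28711 and 17681 CPM in knockouts. Here the sum in Hhex KO replicate 4 lay within the controls, whereas the share of ribosomal protein counts in that library lay above them. The sum is led by Eef1a1 and Eef2, which had 6498 and 2958 CPM in replicate 4, within their controls. Eef1b2, Naca and Npm1, named for their small p, had 673, 350 and 425 CPM there, above every control. The sum thus does not stand for each gene on the list.

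The regulators of these mRNAs had values nearer 0. Of 17 tested genes of mTORC1 and of TOP mRNA control, 12 were above 0, with a median of 0.09, and 0 were called. Of 25 initiation factors 20 were above 0, with a median of 0.15, and Eif1, which checks the start codon, had the smallest adjusted p, at -0.59 ± 0.15 (adjusted p = 0.0661). Of 15 chaperones and transporters of ribosomal proteins 10 were above 0, with a median of 0.22 and 0 called. Mitochondrial ribosomal proteins, which build a separate ribosome, were above 0 in 65 of 77 tested genes, with a median of 0.13 and 0 called. The noncoding snoRNA hosts of the Snhg family and Gas5 were above 0 in 3 of 9, with a median of -0.15.

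**Figure D5:**
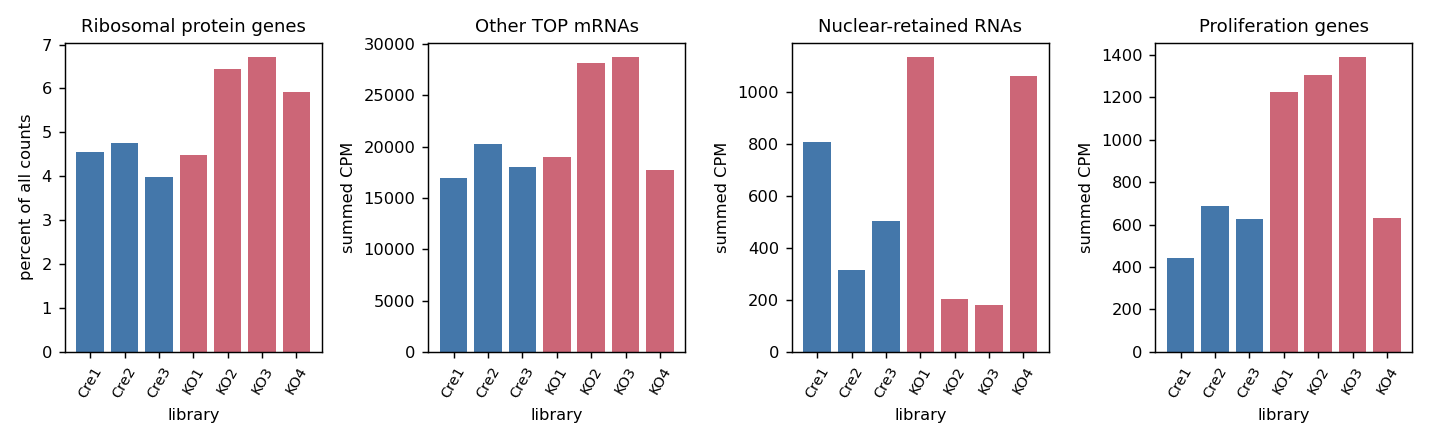
Share of all counts taken by ribosomal protein genes and summed CPM of other TOP mRNAs, of nuclear-retained RNAs and of proliferation genes, in each library (bars; blue, Cre control; red, Hhex KO). The first is highest in Hhex KO replicates 2 and 3, the same libraries in which nuclear-retained RNA is lowest, and the sum of the proliferation genes in Hhex KO replicate 4 lies within the range of the controls.

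Other measures also varied between these libraries. Nuclear-retained RNAs, led by Malat1 and Neat1, summed to 808, 317 and 502 CPM in controls, against 1134, 203, 179.7 and 1064 CPM in knockouts. They were lowest in the 2 Hhex KO libraries with the highest member levels and highest in the other 2. Their part in the differences between libraries was not tested. Proliferation genes were above 0 in 13 of 13, with 5 called higher (Birc5, Tk1, Ccnb1, Cdk1 and Cdc20), and summed to 443, 687 and 627 CPM in controls, against 1227, 1306, 1389 and 631 CPM in knockouts. Hhex KO replicate 1 thus had a high sum of proliferation genes with member levels of the controls. In replicate 4 the sum lay within the controls. Each of the 5 called genes was above every control there too, but the test that called them used this library. Of the genes not called, Mki67 and Ccna2 were also above every control in replicate 4. Top2a, Rrm2, Mcm2, Mcm3 and Pcna lay within the range of the controls there, and Mcm5 lay below it. Markers of T cells summed to between 55.2 and 83.0 CPM in Cre control and between 77.7 and 149.5 CPM in Hhex KO. For B cells these ranges were 215 to 261 and 246 to 407 CPM, with Cd79a and Pax5 at 0 in at least 1 library and Cd79b called higher. Myeloid genes summed to between 355 and 459.9 CPM and between 269 and 767 CPM, and genes of the mitochondrial genome to between 11781 and 15057 CPM and between 10976 and 15866 CPM. The part of these cells in the members' levels was not tested.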

How the data were processed

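RNA of 7 libraries (4 Hhex KO, 3 Cre control) was measured by single-end RNA-seq of 75 bases from a directional kit, per the labels' protocols. The authors deposited raw read counts per gene, made with STAR and featureCounts on mm10, per the submitters' processing notes; the sources used here state no versions, strand setting or annotation release. Of the gene identifiers, 99.8% matched the name table without their version. Counts were tested with edgeR 4.0.16 (R 4.3.3): filterByExpr (at minimum a count of 10 and a total of 15), TMM scaling, robust quasi-likelihood F test without covariates, Benjamini-Hochberg adjustment over the 12161 genes tested, threshold 0.05. CPM use the TMM-scaled library size, and TPM the exon length of GENCODE M21.

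Alternatives were RLE, upper-quartile and total-count scaling, scaling without the members, no filter, a floor of 10 CPM in 3 or more libraries, a replicate block, leaving out each library, DESeq2 1.42.0, and voom of limma 3.58.1, plain or weighted by sample quality. The procedure was tested on simulated counts. The chi-square per degree of freedom between replicate libraries was 10.9 to 78.2 over all tested genes, so each counted as 1 replicate. The series text calls the samples biological replicates without naming animals, so the p-values reflect the spread between these libraries. Members and gene lists were chosen with earlier results of these data known, and no list was tested as a set. Named members are the 12 with the smallest p, the 6 highest and 6 lowest per length, the paralogs with their parents, and any member that is no ribosomal protein; from each list, up to 4 genes with the smallest p. Rplp2, Rps2, Rpl5, Rpl11, Malat1, Cdc20 and the genes ranked in Hhex KO replicate 4 were added after their values were seen. A few genes that the rules name are not reported here.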

Additional observations from a re-analysis of the deposited data

Results flagged for a closer look

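In the Hhex KO group, 3 of 67 values checked had a library far from the other 3, about the 1 in 20 that such a check gives by chance. Rpl13a was at 44.9 CPM in Hhex KO replicate 1, against 61.7 to 64.9 CPM in the others. Gas5, a noncoding snoRNA host with a TOP start, was at 143.6 CPM in Hhex KO replicate 4, against 101.5 to 103.8 CPM. The mitochondrial gene mt-Nd6 was at 23.7 CPM in Hhex KO replicate 4, against 11.4 to 12.95 CPM.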

How the results depend on the processing

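Of 1109 values for 66 named genes under the alternatives, 1024 kept direction and side of the threshold, 6 lost a call, 68 gained one and 11, none of them called, changed sign. The sign changed for Neat1 with plain limma-voom (-0.084) and quality weights (-1.08) on all libraries and with the replicate block (-0.74) on 6, and with quality weights for Firre (-0.57), Kcnq1ot1 (-0.047) and mt-Nd2 (0.0054). Leaving out single libraries moved Neat1 between -0.40 and 0.88, Rpl36al between -0.22 and 0.032, and Rps27rt between -0.16 and 0.19. Of the 6, 5 were Rpl13a and 1 was Hhex, without Cre control replicate 1. The median log2 fold change of the members ran from 0.32 to 0.52 when single libraries were left out, and was 0.54 with limma-voom and quality weights. Members called higher were 7 with DESeq2 and 71 with quality weights (1 lower), and 0 to 15 when libraries were left out. All genes called higher and lower numbered 326 and 228, but 186 (higher) with the filter at 10 CPM, 625 and 469 with DESeq2, 1541 and 1323 with quality weights, and 91 to 527 and 50 to 291 when libraries were left out. Same-numbered libraries deviated together in replicates 1 and 2 (r of 0.14 and 0.61) but not in 3 (r of -0.16). Correlations between libraries of different numbers are not given here, so these values cannot decide whether the number pairs the libraries. The replicate block on 6 libraries, which leaves out Hhex KO replicate 4, gave 499 higher and 275 lower genes and 1 member, with a median of 0.38. The same 6 libraries without the block gave 527 higher and 291 lower genes and 1 member, with a median of 0.41. The cause of these shifts was not tested. Between replicate libraries, the division of member counts among the 83 tested members differed by more than counting error (chi-square per degree of freedom of 3.58 to 98.8). This value covers the members together and does not give the spread of any single one. Whether depth limited the calls was not tested. Rpl24, Rpl39l, Rpl3l and Rpl10l had too few counts to be judged singly.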
